A study of Mus musculus with 16 samples.

Results

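Glycolysis turns glucose into pyruvate in the cytosol, and cells short of oxygen draw on it because it yields ATP without respiration. Hypoxia-inducible factor (HIF) is a transcription factor made of an oxygen-sensitive α subunit (Hif1a or its paralog Epas1, which encodes HIF-2α) and a constant partner. With oxygen present, prolyl hydroxylases mark the α subunit for degradation, and when oxygen falls the stabilised factor raises genes of glucose uptake, glycolysis, lactate export, angiogenesis, mitophagy and collagen modification. The intestinal epithelium lies between a well-perfused mucosa and an almost oxygen-free lumen, and low oxygen and HIF activity are well known there. The genes described here are 36 mouse genes chosen by name from knowledge of these pathways: 2 transporters, 14 genes of glycolysis and its regulation, 3 genes of pyruvate fate, 2 HIF α subunits, 2 prolyl hydroxylases and 13 further HIF targets. They were chosen with earlier results of these data known, so their counts beside those of all genes are descriptive. All 36 were found among the 49585 genes of the count table, and 35 passed the filter on low counts. The gene left out of the tests, Ldhb, which encodes the heart-type lactate dehydrogenase subunit, lay between 0 and 1.36 CPM (read counts scaled to a common library size) over the 16 cultures.

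RNA was sequenced from small intestinal organoids, cultures grown from isolated crypts that hold the epithelium alone, in 4 groups of 4 cultures. The fl/fl organoids (WT in the labels) carried loxP-flanked Atg16l1 alleles without Cre, and the ΔIEC organoids (KO, Atg16l1dIEC) carried the same alleles with Cre under the villin promoter, which deletes Atg16l1, a gene needed for autophagosome formation, in intestinal epithelial cells. Mice were 8 to 12 weeks old, on a C57BL/6 background and with littermate controls, so the floxed alleles are common to all 4 groups. Each genotype was left untreated or given recombinant mouse IL-22, a cytokine that signals to epithelium through STAT3, at 10 ng/ml for 24 h. By the labels, each genotype came from 2 organoid lines, and each line gave 2 cultures for each treatment. Values below are listed in the order the first line (2 cultures), then the second line (2 cultures). Because each line belongs to a single genotype, line and genotype cannot be told apart, and p-values measure the spread between cultures. The cultures had 2135000 to 5574860 counts on genes. Atg16l1 lay at 31.6 to 51.8 CPM in fl/fl and at 0.289 to 5.97 CPM in ΔIEC cultures, and the STAT3 target Socs3 lay at 5.89 to 12.3 CPM in untreated and 149.5 to 270.0 CPM in IL-22–treated cultures, so genotype and treatment matched the labels. The epithelial markers Vil1, Epcam and Cdh1 were at 468.5 CPM or more in every culture, while the 6 stromal markers did not exceed 3 counts in any culture and the leukocyte marker Cd3e was at 0. In bulk RNA, fewer cells of a type and less RNA per cell cannot be told apart.

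CPM were scaled with edgeR's TMM factors. Per kilobase of exon, the levels of the 36 genes in untreated fl/fl organoids ran from 1430 down to 0.637 (Ldhb). Ldha, the muscle-type lactate dehydrogenase subunit, was highest at 1430 ± 53.7 CPM per kb (SD, n = 4), above Pgk1 (1170 ± 26.9), and both exceeded the next genes beyond their spread. Gapdh (935 ± 38.8), Aldoa (908 ± 85.0) and Pkm (869 ± 38.1) followed and did not differ beyond their SDs. The enzymes of the lower pathway Tpi1, Eno1 and Pgam1 lay between 496 and 582 CPM per kb. The regulated entry steps were far lower, with Hk2 at 36.7 ± 2.02, Pfkfb3 at 21.9 ± 2.31 and Hk1 at 19.3 ± 2.85 CPM per kb. Hif1a itself (13.1 ± 0.935 CPM per kb), Pfkm (11.5 ± 1.31), Epas1 (9.0 ± 2.2) and P4ha2 (7.09 ± 1.04) were the lowest of the tested genes, and neighbours in this order did not differ beyond their SDs. For Pgk1 (52.8%), Pgam1 (34.9%), Bnip3 (34.4%), Eno1 (23.0%), Gapdh (22.6%) and Higd1a (22%) the share given of the 75-base stretches of their transcripts also occurs in transcripts of other genes, so their levels are uncertain. Transcripts of the opposite strand overlap exons of Gpi1, Pfkp, Hif1a, Bnip3, Ndrg1, Mxi1, Ankrd37, Fam162a and Higd1a by 168 to 748 bases and of 7 other members by 157 bases or fewer, and without a known strand setting reads there cannot be told apart. Transcripts of other genes on the same strand overlap exons of Pkm by 767, of Pfkm by 341 and of Hif1a by 148 bases. Reads there are ambiguous at any strand setting.

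**Figure D1:**
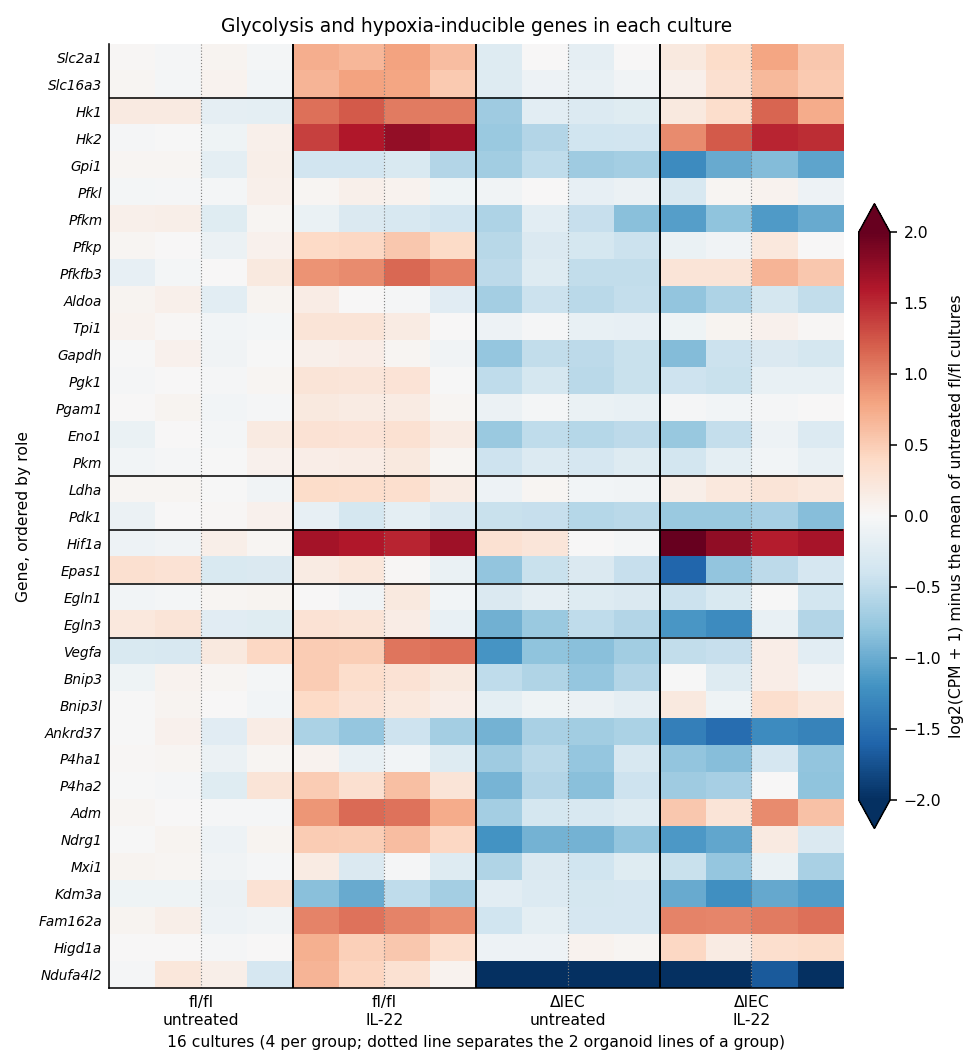
Heat map of the 35 tested genes (rows, grouped by role) in the 16 cultures (columns), coloured by log2(CPM + 1) minus the mean of the 4 untreated fl/fl cultures, with colours saturated at −2 and 2. Hif1a, Hk2 and Fam162a are red in all 8 IL-22–treated cultures, and Ndufa4l2 is blue in all 8 ΔIEC cultures.

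The first question was what IL-22 did to these genes in each genotype. In fl/fl organoids IL-22 raised 13 of the 35 tested members and lowered 4 at an adjusted p under 0.01 (edgeR quasi-likelihood test, Benjamini-Hochberg over 12559 genes), where 10.6% of all tested genes rose and 10.2% fell. In ΔIEC organoids 13 rose and 4 fell, against 9.83% and 7.65% of all genes. The members that rose in both genotypes were 12: the transporters Slc2a1 and Slc16a3, the enzymes and regulators Hk1, Hk2, Pfkp and Pfkfb3, Ldha, Hif1a, and the HIF targets Bnip3, Adm, Fam162a and Higd1a. Those that fell in both were Gpi1, Ankrd37 and Kdm3a. No share of all genes was worked out for a change in both genotypes. The median log2 fold change of the members was 0.25 in fl/fl and 0.19 in ΔIEC organoids, beside −0.046 and −0.0073 for all tested genes. Groups did not overlap for 15 members that were higher and 4 that were lower in fl/fl (15.4% of all genes in each direction), and for 13 and 4 in ΔIEC (14.1% and 13.2%). After adding up both cultures of each line, 7 rose and 2 fell in fl/fl (2.57% and 1.35% of all genes) and 5 rose and 2 fell in ΔIEC organoids (2.78% and 1.8%). Without the second ΔIEC line 6 rose in ΔIEC, 2 fell without the first ΔIEC line, the second untreated or the fourth treated ΔIEC culture, and 1 and 2 fell in fl/fl without the first and the second fl/fl line. Leaving out single cultures ended the calls of Pdk1 and Bnip3 in fl/fl (adjusted p up to 0.0408 and 0.0248) and of Gpi1, Pfkm, Ldha, Bnip3l and Higd1a in ΔIEC (up to 0.016, 0.0488, 0.0284, 0.0286 and 0.0171).

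Both transporters rose. Slc2a1 encodes GLUT1, a basal glucose transporter. In fl/fl cultures it went from 223, 216, 228 and 214 CPM without to 365, 349, 385 and 338 CPM with IL-22, and in ΔIEC cultures from 184, 221, 194 and 222 to 252, 284, 380.2 and 322 CPM. In each genotype every treated culture lay above every untreated one, by 1.63-fold in fl/fl (log2 0.71 ± 0.10, SE; adjusted p = 2.17e-05) and 1.51-fold in ΔIEC (adjusted p = 0.000146). Slc16a3, the lactate exporter MCT4, went from 385, 365, 394 and 361 to 603, 660.2, 647 and 539.6 CPM in fl/fl and from 316, 352, 338 and 358 to 403, 472, 593 and 541 CPM in ΔIEC cultures. That is a 1.63-fold rise in fl/fl (adjusted p = 1.83e-05) and a 1.47-fold rise in ΔIEC (adjusted p = 0.000218). Within the ΔIEC group the first line rose less, by 0.405 against 0.755 on the log2 scale for Slc2a1 and by 0.388 against 0.703 for Slc16a3.

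Both hexokinases, which trap glucose as its phosphate, rose. Hk1 lay at 185, 186, 144 and 143 CPM before and 352, 384, 335 and 335 CPM after IL-22 in fl/fl, and at 99.03, 141, 134 and 138 and 188, 207, 368 and 275 CPM in ΔIEC cultures. Its rise was 2.13-fold (adjusted p = 4e-05) and 2.04-fold (adjusted p = 9.43e-05) respectively, with no overlap between treated and untreated cultures of a genotype. Hk2, the inducible isoform, went from 216, 217, 207 and 236 to 564, 663, 745 and 707 CPM in fl/fl organoids. In ΔIEC organoids Hk2 went from 131, 145, 166 and 167 to 424, 515, 628 and 613 CPM. The log2 fold change of Hk2 was 1.61 ± 0.12 (SE) in fl/fl and 1.84 ± 0.12 in ΔIEC (adjusted p = 4.15e-09 and 6.64e-10), and all 4 lines rose by 1.5 to 1.89.

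The next enzyme in order moved the other way. Gpi1, the isomerase that turns glucose phosphate into fructose phosphate, fell from 2386, 2397, 2024 and 2517 to 1781, 1789, 1881 and 1546 CPM in fl/fl and from 1433, 1626, 1413 and 1444 to 974, 1157, 1275 and 1122 CPM in ΔIEC cultures. Treated and untreated cultures did not overlap in either genotype, and the fall was 1.33-fold (adjusted p = 0.00146) and 1.31-fold (adjusted p = 0.00299).

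The 3 phosphofructokinase isoforms, which commit the sugar to glycolysis, did not move alike. The platelet-type Pfkp rose from 722, 709, 650.5 and 748 to 936, 943, 1022 and 924 CPM in fl/fl and from 482, 575, 551 and 525 to 648, 673, 819 and 707 CPM in ΔIEC cultures, 1.35-fold (adjusted p = 0.000348) and 1.33-fold (adjusted p = 0.00059). The muscle-type Pfkm lay at 41.2, 41.6, 32.2 and 39.3 CPM untreated and 34.8, 31.1, 30.6 and 29.1 CPM with IL-22 in fl/fl organoids, where its log2 fold change of −0.31 ± 0.12 had an adjusted p of 0.0596. In ΔIEC organoids Pfkm fell from 24.8, 32.97, 27.8 and 21.2 to 17.4, 21.6, 16.9 and 18.5 CPM (log2 −0.53 ± 0.14; adjusted p = 0.00764), and the difference between the 2 effects had an adjusted p of 0.87. The liver-type Pfkl had log2 fold changes of 0.028 ± 0.080 and 0.015 ± 0.080 and did not pass the test (adjusted p = 0.827 and 0.92). Pfkfb3, whose product makes the bisphosphate that activates phosphofructokinase, rose from 147, 160.3, 166 and 189 to 309, 319, 366 and 334 CPM in fl/fl and from 115, 138, 117 and 117 to 197, 197, 264 and 240.2 CPM in ΔIEC cultures. The rise was 2.01-fold (adjusted p = 3.79e-07) and 1.84-fold (adjusted p = 2.29e-06), with no overlap in either genotype.

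From aldolase to pyruvate kinase, no member passed the test with IL-22. The 7 genes Aldoa, Tpi1, Gapdh, Pgk1, Pgam1, Eno1 and Pkm had log2 fold changes of −0.025 to 0.25 in fl/fl and −0.022 to 0.20 in ΔIEC organoids, with adjusted p of 0.0687 to 0.879 and 0.114 to 0.903. At the end of the pathway Ldha rose again. It was measured at 4875, 4860, 4676 and 4498 CPM untreated and 6068, 6023, 5957 and 5303 CPM treated in fl/fl, and at 4419, 4829, 4541 and 4518 and 5126, 5498, 5630 and 5471 CPM in ΔIEC cultures. The rise was small, 1.24-fold (adjusted p = 0.00136) and 1.19-fold (adjusted p = 0.00762), and passed the test in both genotypes. Pdk1, a kinase that inhibits pyruvate dehydrogenase, lay at 399, 434, 440.2 and 461 CPM untreated and 388, 339, 379 and 354 CPM treated in fl/fl and at 319, 313, 290.3 and 297 and 257, 258, 272 and 240.5 CPM in ΔIEC cultures. It fell in fl/fl organoids (log2 −0.25 ± 0.069; adjusted p = 0.00907, but 0.014 with relative log expression in place of TMM scaling), while the log2 difference of −0.25 ± 0.070 in ΔIEC organoids had an adjusted p of 0.0115, or 0.00294 with organoid line as a block and 0.146 with the lines summed.

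Of the HIF subunits, Hif1a rose and Epas1 did not pass the test. Hif1a went from 71.9, 73.2, 83.9 and 78.9 to 246, 235, 224 and 252 CPM in fl/fl and from 95.3, 91.3, 77.6 and 74.8 to 315, 265, 230.0 and 242 CPM in ΔIEC cultures. All 8 treated cultures lay at 223.6 CPM or more and all 8 untreated ones at 95.3 CPM or less, giving 3.11-fold (log2 1.64 ± 0.10, adjusted p = 3.84e-10) and 3.08-fold (log2 1.62 ± 0.10, adjusted p = 3.51e-10). Epas1 changed by 0.028 ± 0.18 in fl/fl and −0.22 ± 0.21 in ΔIEC on the log2 scale, and its cultures are listed with the genotype comparison below. The prolyl hydroxylase genes Egln1 (PHD2) and Egln3 (PHD3) had log2 fold changes between −0.022 and 0.13, with adjusted p of 0.653 or more.

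Among the 13 further HIF targets, 5 rose in each genotype, and 4 rose in both. Of all tested genes, 10.6% rose in fl/fl and 9.83% in ΔIEC organoids. Fam162a, which encodes a mitochondrial protein linked to hypoxic cell death, went from 307, 319, 276 and 282 to 586, 628, 591 and 564 CPM in fl/fl and from 223, 257, 235 and 233 to 588, 580.0, 607 and 638 CPM in ΔIEC cultures. Its rise was 1.999-fold (log2 1.00 ± 0.070; adjusted p = 2.89e-09) and 2.55-fold (log2 1.35 ± 0.071; adjusted p = 3.13e-11). The treated cultures of both genotypes ended in the same range although the untreated ΔIEC cultures began lower. Adm, the vasodilator peptide adrenomedullin, rose from 25.1, 24.5, 24.03 and 24.1 to 45.9, 54.7, 53.1 and 41.4 CPM in fl/fl and from 14.8, 18.9, 19.3 and 20.4 to 36.05, 29.5, 48.05 and 37.04 CPM in ΔIEC cultures, 2.01-fold and 2.08-fold (adjusted p = 1.43e-05 and 1.92e-05). Higd1a, a small protein of the respiratory chain, rose from 120.1, 119.9, 116 and 119 to 195, 166, 174 and 149.8 CPM in fl/fl and from 111, 111, 126 and 122 to 159, 133, 149.6 and 154 CPM in ΔIEC cultures, 1.44-fold and 1.27-fold (adjusted p = 6.92e-05 and 0.00357).

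Next come the mitophagy receptors. Bnip3 went from 238, 266, 261 and 247 to 361, 323, 309.7 and 288 CPM in fl/fl and from 178, 167, 147 and 168 to 252, 211, 278 and 241 CPM in ΔIEC cultures, 1.27-fold (adjusted p = 0.00556) and 1.49-fold (adjusted p = 7.12e-05). Its paralog Bnip3l (NIX) lay at 208, 217, 211 and 201 CPM untreated and 277, 256, 243 and 230.4 CPM treated in fl/fl, and at 182, 197, 192 and 184 and 240.2, 197, 264 and 242 CPM in ΔIEC cultures. It passed the test in ΔIEC (1.25-fold; adjusted p = 0.00635) and, at 1.201-fold, not in fl/fl organoids (adjusted p = 0.0178, or 0.0026 with organoid line as a block and 0.143 with the lines summed). Vegfa, the main angiogenic ligand, stood at 199, 197, 281 and 328 CPM untreated and 351, 345, 518 and 525 CPM treated in fl/fl and at 108, 139.8, 137 and 152 and 175, 179, 268 and 212 CPM in ΔIEC cultures. The second fl/fl line was the higher one both with and without IL-22. Vegfa rose 1.74-fold in fl/fl organoids (adjusted p = 0.00184), and the 1.56-fold difference in ΔIEC organoids had an adjusted p of 0.0125 without and 3.7e-07 with the line as a block, and of 0.142 with the lines summed.

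Targets that fell with IL-22 were Ankrd37, an ankyrin-repeat protein, and Kdm3a, a histone H3K9 demethylase. Ankrd37 went from 165, 176, 140.5 and 182 to 106, 96.05, 124 and 102 CPM in fl/fl and from 85.1, 105, 101 and 106 to 63.6, 56.5, 68.3 and 64.5 CPM in ΔIEC cultures. It was 1.55-fold and 1.57-fold lower (adjusted p = 6.14e-05 and 9.84e-05), with no overlap in either genotype. Kdm3a went from 213, 212, 207 and 275 to 126, 112, 158 and 141 CPM in fl/fl and from 196, 186, 177 and 179 to 112, 96.01, 110.3 and 103 CPM in ΔIEC cultures, 1.69-fold and 1.76-fold lower (adjusted p = 1.62e-05 and 8.53e-06). Both fell in all 4 lines. Ndrg1, P4ha1, P4ha2, Mxi1 and Ndufa4l2 did not pass the test in either genotype, with log2 fold changes of −0.10 to 0.51. With organoid line as a block, Ndrg1 passed in fl/fl (adjusted p = 0.000395) and in ΔIEC organoids (adjusted p = 0.00534), and Ndufa4l2 passed in fl/fl (adjusted p = 0.00989). With the lines summed none of the 3 passed (adjusted p = 0.238, 0.269 and 0.294), and in the first ΔIEC line Ndrg1 changed by −0.027.

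**Figure D2:**
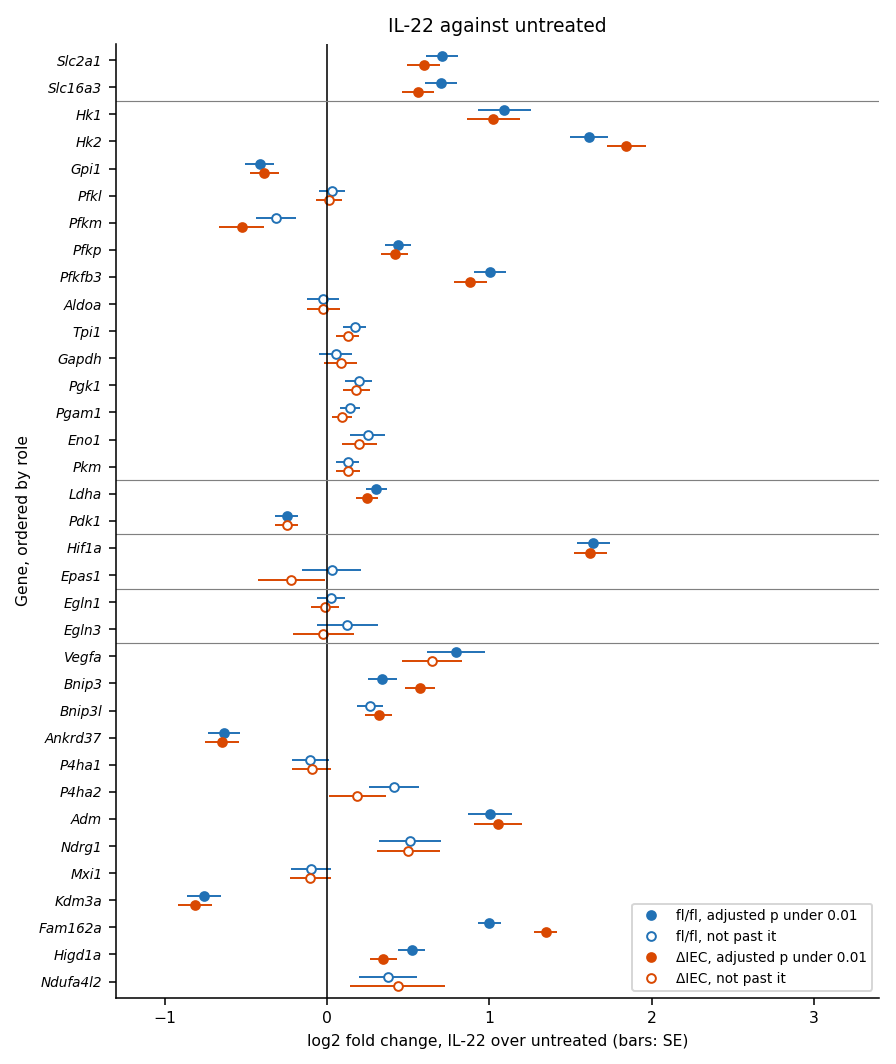
Log2 fold change of IL-22–treated over untreated cultures for the 35 tested genes (rows, by role), with SE bars, in fl/fl (blue) and ΔIEC organoids (orange). Filled points passed an adjusted p of 0.01. The points of both genotypes lie close together for most genes, and Hif1a and Hk2 lie farthest to the right at 1.61 to 1.84.

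The stretches before the start sites of Hk2 and Hif1a (the members with the largest rise), of Fam162a (whose IL-22 effect had the largest difference between genotypes) and of Ankrd37 (a HIF target that fell) are shown because the genes moved together or apart under the same treatment. Each holds the 250 bases before the start from RefSeq on GRCm38.p6, read 5′ to 3′ on the strand of the gene. Capitals mark the HIF core letters ACGTG or GCGTG on either strand. The windows are Hk2 at chr6:82774455-82774704 (minus strand), Hif1a at chr12:73907617-73907866 (plus), Fam162a at chr16:36071562-36071811 (minus) and Ankrd37 at chr8:45999851-46000100 (minus).
Hk2: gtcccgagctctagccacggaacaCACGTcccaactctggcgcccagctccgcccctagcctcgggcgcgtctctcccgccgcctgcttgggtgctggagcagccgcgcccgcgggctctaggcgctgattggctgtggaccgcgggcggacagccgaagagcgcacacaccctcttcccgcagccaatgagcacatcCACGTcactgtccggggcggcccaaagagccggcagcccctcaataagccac
Hif1a: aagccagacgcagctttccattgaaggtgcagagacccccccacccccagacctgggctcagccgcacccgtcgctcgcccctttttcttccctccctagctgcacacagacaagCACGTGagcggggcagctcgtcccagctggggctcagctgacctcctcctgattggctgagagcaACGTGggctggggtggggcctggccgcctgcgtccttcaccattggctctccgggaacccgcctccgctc
Fam162a: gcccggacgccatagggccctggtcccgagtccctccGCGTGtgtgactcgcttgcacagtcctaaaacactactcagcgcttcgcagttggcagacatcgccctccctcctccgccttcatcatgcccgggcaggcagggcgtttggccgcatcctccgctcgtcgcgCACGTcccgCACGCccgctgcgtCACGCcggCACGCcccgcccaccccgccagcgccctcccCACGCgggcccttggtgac
Ankrd37: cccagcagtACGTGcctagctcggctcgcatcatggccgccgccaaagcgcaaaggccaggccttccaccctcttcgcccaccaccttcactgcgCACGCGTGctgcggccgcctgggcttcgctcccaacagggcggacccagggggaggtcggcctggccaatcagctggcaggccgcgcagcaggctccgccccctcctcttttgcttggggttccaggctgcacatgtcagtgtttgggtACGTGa
Counting both strands, Hk2 held 2 matches to ACGTG, Hif1a 3 to ACGTG, Fam162a 1 to ACGTG and 5 to GCGTG, and Ankrd37 2 of each. Matches on opposite strands overlap in CACGTG (Hif1a) and in CACGCGTG (Ankrd37), and these were counted as 2. Fam162a, which rose, held the most matches (6). Ankrd37, which fell, held 4, more than Hif1a (3) or Hk2 (2), which rose. With 4 chosen windows, no relation between matches and direction can be read. Of the 36 members, 32 had at least 1 such window in the table, 49 windows in all. The letters ACGTG were in 49.0% of the members' windows and in 16.6% of all 32851 windows, and GCGTG in 51.0% and 28.2%. Either was in 77.6% of the members' windows and in 38.6% of all. Counted by gene, 93.8% of the 32 members and 41.5% of all genes had either in a window. The members without one were Gpi1 and Tpi1. The STAT-type letters TTCNNNGAA, which read the same on both strands, were in 4.08% of the members' windows and 7.02% of all. None of the 4 windows shown held them. The list was drawn up partly from known HIF targets, a gene can have several overlapping windows, and a match is a string of letters, not a binding site. In the 4 windows shown, 66.4% to 71.2% of bases were G or C. The members' windows were not matched to all windows for base composition.

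Whether IL-22 acted differently on a member in ΔIEC than in fl/fl was tested as an interaction. No member passed the test (0 of 35, against 0.0159% of all tested genes), with 1 member at an unadjusted p under 0.05 (7.26% of all genes) in edgeR and in DESeq2, where 0 passed the adjusted test. In edgeR that member was Fam162a, whose log2 fold change was higher in ΔIEC organoids by 0.35 ± 0.099 (SE; adjusted p = 0.355, and 0.0356 with the line as a block). The next in size were Epas1 at −0.25 ± 0.28, Hk2 at 0.23 ± 0.16 and Bnip3 at 0.23 ± 0.13. For Hif1a the difference was −0.017 ± 0.14, and the remaining members had differences of 0.226 or less in size. The count of members at an unadjusted p under 0.05 depended on the run. It was 3 with organoid line as a block and 2 without the first ΔIEC line, all with a positive difference. Without the second ΔIEC line it was 6, all with a negative difference. No member passed the adjusted test in these runs, and shares of all genes at the unadjusted level were not worked out for them. A p that misses the threshold does not show that the effects are equal.

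The second question was how the genotypes differed at each treatment. In untreated organoids 19 of the 35 members were lower in ΔIEC than in fl/fl and none was higher, where 5.98% of all tested genes were lower and 3.78% higher. With IL-22, 19 were lower and 0 higher, against 9.84% and 9.91% of all genes. Of these, 17 were lower at both treatments, for which no share of all genes was worked out. Hk2 and Fam162a passed only in untreated and Epas1 and Egln3 only in IL-22–treated organoids. Whether these 4 differed between the treatments is the interaction test above, which they did not pass. The median log2 difference of the members was −0.44 untreated and −0.43 with IL-22, beside −0.020 and 0.0072 for all tested genes, and 34 and 33 of the 35 members had a negative value. Untreated ΔIEC cultures lay below every untreated fl/fl culture for 26 members (12.6% of all genes), and IL-22–treated ones for 19 (14.2%). The 2 genotype comparisons share no culture with each other, and each shares its groups with the IL-22 comparisons. After adding up both cultures of each line, so that 2 lines stand against 2, Ndufa4l2 alone passed in untreated organoids (0.0505% of all genes were lower), and Ndufa4l2, Ankrd37 and P4ha2 passed with IL-22 (0.952%). Without the first ΔIEC line 11 members passed untreated and 8 with IL-22, without the first fl/fl line 9 passed untreated, and without the first untreated ΔIEC culture 10 did. The 9 lost with that culture were Hk2, Pfkm, Pfkp, Pfkfb3, Pkm, Vegfa, Fam162a, P4ha2 and Ndrg1 (adjusted p = 0.0101 to 0.0304), and with IL-22 Bnip3, Epas1 and Pkm each lost the call without some single culture (adjusted p up to 0.0139).

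The transporters, which both rose with IL-22, did not pass the test between genotypes (log2 −0.10 to −0.29, adjusted p from 0.0289 to 0.512). In the glycolytic pathway 10 of 14 genes were lower in untreated ΔIEC organoids and 9 of 14 with IL-22. Of all tested genes, 5.98% and 9.84% were lower. The level of Gpi1 given above was 1.58-fold lower in ΔIEC untreated (log2 −0.66 ± 0.090; adjusted p = 7.42e-05) and 1.54-fold lower with IL-22 (adjusted p = 4.59e-05), with no overlap at either treatment. Pfkp was 1.33-fold and 1.34-fold lower, Pfkfb3 1.36-fold and 1.48-fold lower, and Pfkm 1.44-fold and 1.67-fold lower, all with adjusted p of 0.00664 or less. Hk2 was 1.44-fold lower untreated (adjusted p = 0.0038), and its log2 difference of −0.30 ± 0.11 with IL-22 did not pass (adjusted p = 0.0477). Hk1 differed by −0.37 ± 0.17 and −0.43 ± 0.16 on the log2 scale (adjusted p = 0.126 and 0.0425).

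Of the 7 enzymes from aldolase to pyruvate kinase, none of which passed with IL-22, Aldoa, Gapdh, Pgk1, Eno1 and Pkm were lower in ΔIEC organoids at both treatments. Aldoa, the aldolase that splits the sugar into trioses, lay at 2725, 2841, 2282 and 2730 CPM in untreated and 2907, 2642, 2597 and 2253 CPM in treated fl/fl cultures. In ΔIEC cultures Aldoa lay at 1649, 1954, 1817 and 1888 CPM untreated and 1519, 1719, 2075 and 1883 CPM treated. The 8 ΔIEC values were all under the 8 fl/fl values, by 1.45-fold untreated (adjusted p = 0.00106) and 1.45-fold treated (adjusted p = 0.000498). Gapdh, often used as a reference transcript, stood at 3844, 4075, 3685 and 3845 CPM in untreated and 4155, 4240, 3984 and 3664 CPM in treated fl/fl cultures, and at 2252, 2757, 2678 and 2831 and 2115, 2863, 3156 and 3011 CPM in ΔIEC cultures. It was 1.47-fold and 1.44-fold lower in ΔIEC (adjusted p = 0.000988 and 0.00071), again without overlap. Pgk1, which forms ATP, was at 2566, 2645, 2578 and 2695 and 3139, 3094, 3153 and 2615 CPM in untreated and treated fl/fl cultures and at 1843, 2046, 1799 and 1923 and 1964, 1929, 2360 and 2370 CPM in ΔIEC cultures. This made it 1.38-fold and 1.39-fold lower (adjusted p = 0.000766 and 0.000265).

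Further down, Eno1, the enolase that forms phosphoenolpyruvate, was at 2472, 2721, 2632 and 3065 CPM untreated and 3302, 3284, 3335 and 3027 CPM treated in fl/fl and at 1617, 1918, 1824 and 1884 and 1599, 1951, 2520 and 2239 CPM in ΔIEC cultures. It was 1.504-fold and 1.56-fold lower in ΔIEC (adjusted p = 0.000896 and 0.000197). Pkm, the pyruvate kinase of proliferating and many adult cells, was at 4169, 4295, 4302 and 4616 CPM untreated and 4779, 4789, 4970 and 4439 CPM treated in fl/fl and at 3272, 3601, 3443 and 3635 and 3377, 3784, 4178 and 3907 CPM in ΔIEC cultures. The difference was 1.25-fold and 1.25-fold (adjusted p = 0.00435 and 0.00255), the smallest that passed at both treatments. Pfkl, Tpi1 and Pgam1 did not pass in any comparison, with log2 differences between genotypes of −0.087 to −0.16. Ldha did not pass either (−0.047 ± 0.066 and −0.10 ± 0.066; adjusted p = 0.658 and 0.234), whereas Pdk1 was 1.42-fold lower untreated and 1.42-fold lower with IL-22 (adjusted p = 7.31e-05 and 3.17e-05).

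Hif1a was the only member with a positive value in both comparisons, and it did not pass the test (log2 0.15 ± 0.10 untreated and 0.14 ± 0.094 with IL-22; adjusted p = 0.32 and 0.284). Epas1 lay at 61.4, 60.5, 39.4 and 39.9 CPM untreated and 55.03, 57.7, 49.8 and 44.6 CPM treated in fl/fl and at 28.1, 35.9, 40.2 and 35.3 and 15.8, 28.1, 33.9 and 38.8 CPM in ΔIEC cultures. The untreated groups overlapped, and the difference passed with IL-22 (1.75-fold lower in ΔIEC; adjusted p = 0.00388) and not without (1.47-fold; adjusted p = 0.0491). Egln3, a hydroxylase gene that HIF itself induces, lay at 752, 775, 553 and 546 CPM untreated and 792, 771, 721 and 583 CPM treated in fl/fl and at 333, 386, 456 and 434 and 289, 272, 586 and 433 CPM in ΔIEC cultures. The lines of a genotype stood apart, with the first fl/fl line above the second and the first ΔIEC line below the second. Egln3 was 1.81-fold lower in treated ΔIEC organoids (adjusted p = 0.00199), and its untreated log2 difference of −0.71 ± 0.19 did not pass (adjusted p = 0.0123). Egln1, the main oxygen-sensing hydroxylase, differed by −0.25 ± 0.087 and −0.29 ± 0.087 (adjusted p = 0.046 and 0.0146).

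The HIF targets held the widest differences between genotypes. Ndufa4l2, a mitochondrial protein that curbs the respiratory chain when oxygen is low, lay at 52.01, 62.3, 57.6 and 41.7 CPM untreated and 85.1, 71.5, 65.7 and 55.4 CPM treated in fl/fl cultures. In ΔIEC cultures it lay at 7.31, 8.37, 4.83 and 9.97 CPM untreated and 4.86, 7.95, 15.7 and 11.9 CPM treated. No ΔIEC culture came near the fl/fl range, and the difference was 6.94-fold untreated (log2 −2.79 ± 0.24, SE; adjusted p = 4.05e-07) and 6.65-fold with IL-22 (log2 −2.73 ± 0.22; adjusted p = 1.65e-07). It was also the member that passed at both treatments under every alternative run. Ndrg1, a stress- and differentiation-related gene, lay at 1034, 1083, 965 and 1076 CPM untreated and 1476, 1464, 1595 and 1384 CPM treated in fl/fl and at 452, 537, 537 and 601 and 467, 505, 1180 and 852 CPM in ΔIEC cultures. The second ΔIEC line rose with IL-22 while the first did not (log2 0.84 against −0.027), and Ndrg1 was 1.96-fold lower in untreated and 1.97-fold lower in treated ΔIEC organoids (adjusted p = 0.00195 and 0.000823). Vegfa was 1.88-fold lower untreated and 2.08-fold lower with IL-22 (adjusted p = 0.00198 and 0.000208).

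The collagen prolyl 4-hydroxylase α subunits were lower together. P4ha1 was at 122, 124, 111 and 124 CPM untreated and 126, 108, 115 and 100.1 CPM treated in fl/fl and at 72.6, 82.4, 69.97 and 95.9 and 69.3, 65.9, 95.2 and 69.2 CPM in ΔIEC cultures, 1.505-fold and 1.497-fold lower in ΔIEC (adjusted p = 0.00159 and 0.000831). P4ha2 was at 43.5, 43.4, 37.2 and 52.97 CPM untreated and 62.95, 55.2, 66.8 and 52.4 CPM treated in fl/fl and at 22.6, 29.04, 24.1 and 32.8 and 26.3, 27.3, 44.1 and 24.6 CPM in ΔIEC cultures, 1.66-fold and 1.94-fold lower (adjusted p = 0.00486 and 0.000199). In both genes the highest of the treated ΔIEC cultures was the same one, the first culture of the second line. Ankrd37, already lowered by IL-22 in each genotype, was also 1.68-fold and 1.698-fold lower in ΔIEC organoids (adjusted p = 6.18e-05 and 2.8e-05), so that its lowest levels were those of treated ΔIEC cultures. Bnip3 was 1.53-fold lower untreated and 1.304-fold lower with IL-22 (adjusted p = 0.000136 and 0.00266).

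The remaining targets follow. Fam162a was 1.25-fold lower in untreated ΔIEC organoids (adjusted p = 0.00347) and had a log2 difference of 0.027 ± 0.069 with IL-22 (adjusted p = 0.795). Adm, Bnip3l, Higd1a, Kdm3a and Mxi1 did not pass at either treatment, with log2 differences of −0.024 to −0.43 untreated and −0.093 to −0.39 with IL-22. Mxi1, a MYC antagonist, passed in no comparison.

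**Figure D3:**
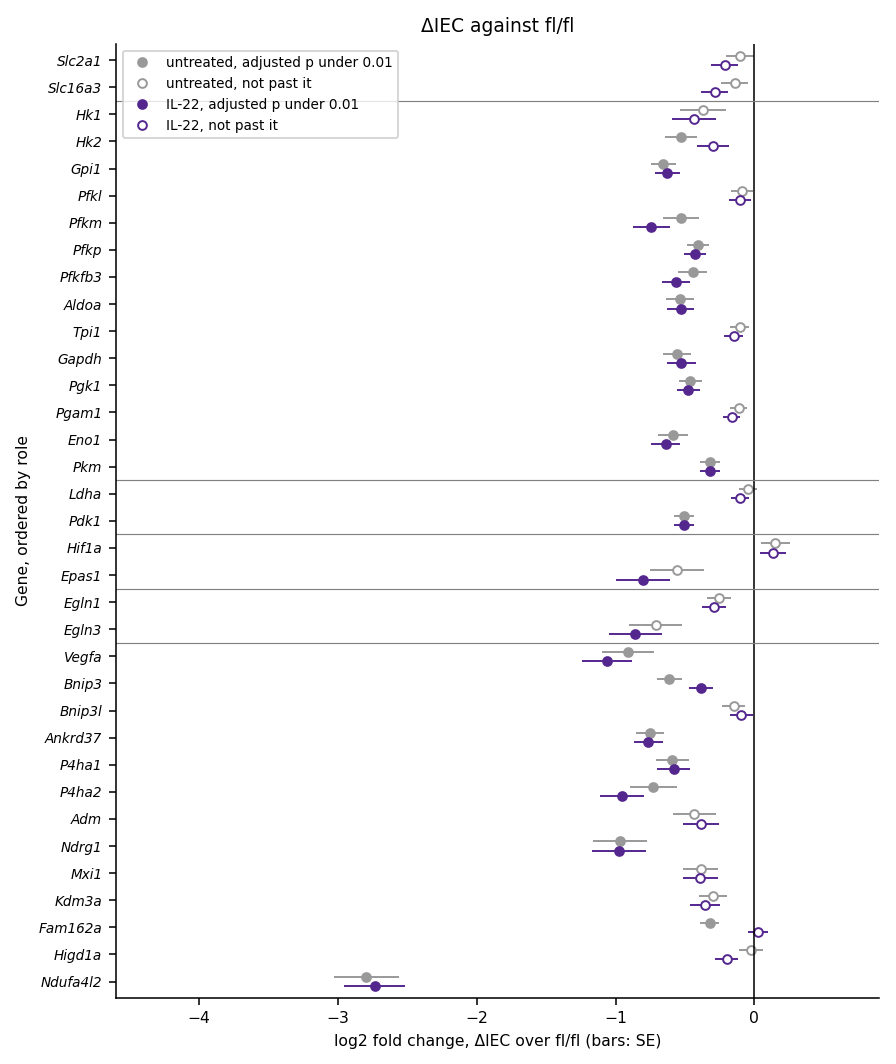
Log2 fold change of ΔIEC over fl/fl cultures for the 35 tested genes (rows, by role), with SE bars, untreated (grey) and with IL-22 (purple). Filled points passed an adjusted p of 0.01. Nearly all points lie left of 0, Ndufa4l2 farthest at −2.80 and −2.73, and Hif1a lies to the right.

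**Figure D4:**
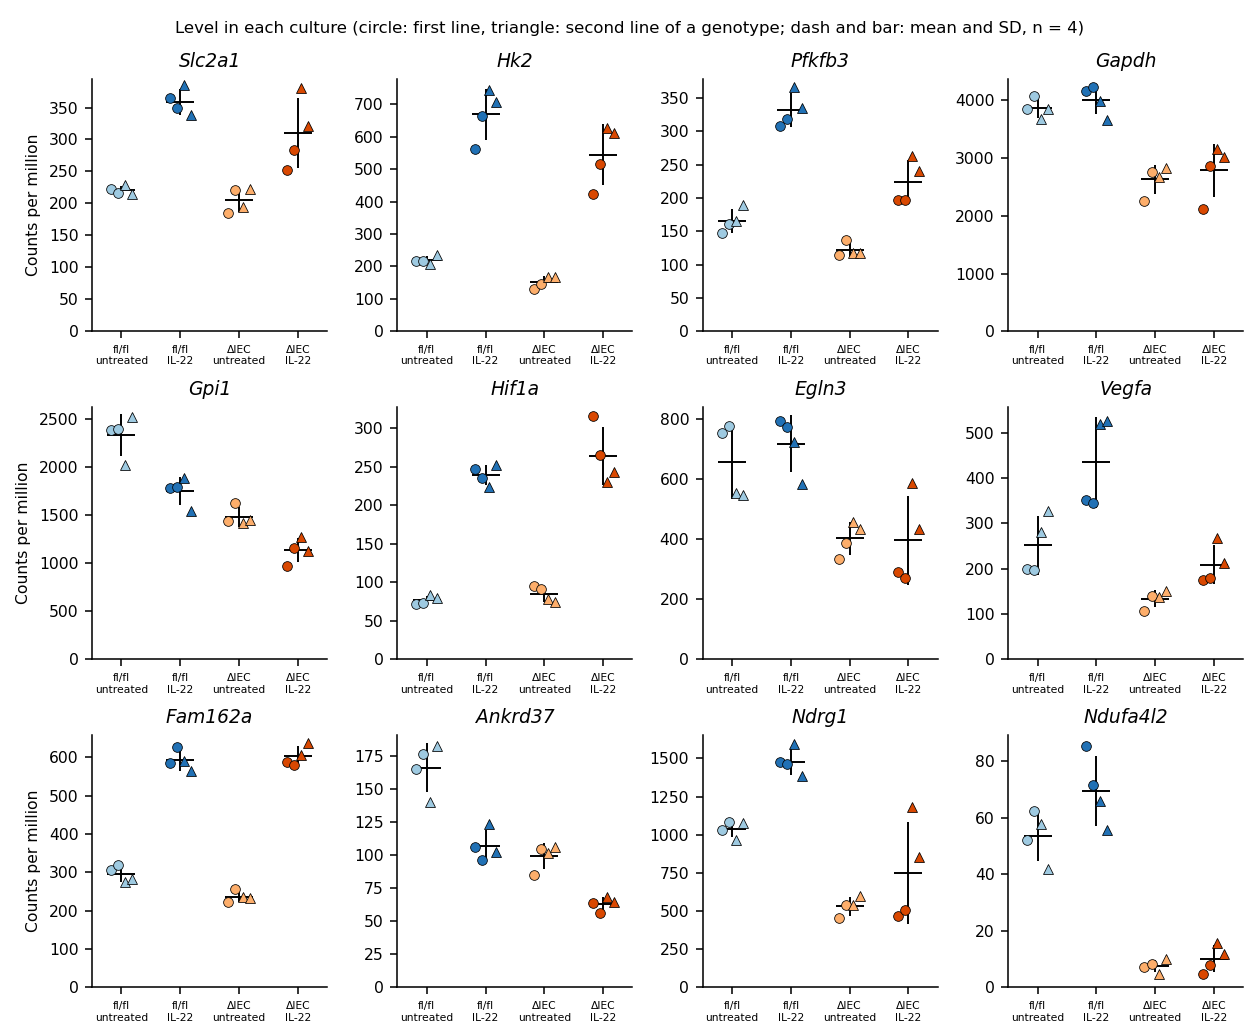
CPM of 12 members in each culture, by group, with circles for the first and triangles for the second organoid line of a genotype, and a dash and bar for the mean and SD (n = 4). Hif1a and Fam162a reach like levels in both treated groups, Gpi1 and Ankrd37 fall with IL-22 in both genotypes, and the ΔIEC lines separate for Egln3 and Ndrg1 under IL-22.

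Across the 4 lines, 20 of the 35 members were higher with IL-22 in every line (26% of all tested genes) and 7 were lower in every line (29.2%). The members' median change was 0.31 and 0.24 on the log2 scale in the fl/fl lines, 0.29 in the second ΔIEC line and 0.039 in the first. Read against this, 9 members passed only in IL-22 comparisons, 11 only in genotype comparisons and 10 in both. Shares of all genes were not worked out for these overlaps, so the counts only describe the members. Of the 10, Hk2, Pfkp, Pfkfb3, Vegfa, Bnip3 and Fam162a rose with IL-22 in at least 1 genotype and were lower in ΔIEC at 1 treatment or both, and Gpi1, Pfkm, Pdk1 and Ankrd37 fell with IL-22 in at least 1 genotype and were lower in ΔIEC at both treatments. Of these, Vegfa and Pdk1 passed with IL-22 in fl/fl alone, Pfkm in ΔIEC alone, and Hk2 and Fam162a differed between genotypes in untreated organoids alone.

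Other genes of the pathway were read from lists drawn up from general knowledge, also with earlier results of these data known. Their shares beside those of all genes are therefore descriptive. Of 40 further genes of glucose transport, glycolysis and pyruvate use, 31 were tested. With IL-22, 2 rose (6.45%) and 8 fell (25.8%) in each genotype, beside 10.6% and 10.2% of all genes in fl/fl and 9.83% and 7.65% in ΔIEC. In ΔIEC against fl/fl organoids 9 (29%) were lower and none higher untreated, and 11 (35.5%) lower and 1 higher with IL-22, beside 5.98% and 9.84% of all genes lower. The genes that fell with IL-22 included isoforms of liver and mature enterocytes. Slc2a2 (GLUT2) fell from 129 ± 3.63 CPM (mean ± SD, n = 4) to 20.4 ± 6.17 CPM in fl/fl organoids (log2 −2.67 ± 0.24; adjusted p = 9.69e-08), in contrast to Slc2a1. Pklr, the liver-type pyruvate kinase, fell from 591 ± 47.8 to 364 ± 4.78 CPM (adjusted p = 2.34e-06), and Pdk2 from 50.1 ± 9.31 to 24.8 ± 4.18 CPM (adjusted p = 4.02e-05). All 3 also fell in ΔIEC organoids, with adjusted p of 5.09e-05 or less. Between genotypes, Hkdc1, a further hexokinase, and Aldoc were lower in untreated ΔIEC organoids (log2 −0.87 ± 0.090 and −0.79 ± 0.16; adjusted p = 4.12e-06 and 0.00209), as were the pyruvate dehydrogenase subunits Pdha1 (log2 −0.38 ± 0.074; adjusted p = 0.00164) and Pdhb (log2 −0.45 ± 0.084; adjusted p = 0.00113).

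Of 47 further HIF-regulated genes found in the table, 33 were tested. IL-22 raised 5 (15.2%) and lowered none in fl/fl, and raised 3 and lowered 3 (9.09% each) in ΔIEC organoids, where the shares of all genes given above were 10.6% and 10.2%, and 9.83% and 7.65%. In ΔIEC against fl/fl organoids 9 (27.3%) were lower and 1 higher untreated, and 13 (39.4%) lower and none higher with IL-22, again beside 5.98% and 9.84% of all genes lower. The haem-degrading enzyme Hmox1 rose from 21.2 ± 6.78 to 66.8 ± 5.29 CPM in fl/fl and from 16.9 ± 3.63 to 51.6 ± 16.9 CPM in ΔIEC organoids (adjusted p = 7.51e-06 and 1.2e-05). Car9, a carbonic anhydrase and a much-used hypoxia marker, was at 499.6 ± 36.9 CPM in untreated fl/fl and 313 ± 17.9 CPM in untreated ΔIEC organoids (log2 −0.68 ± 0.077; adjusted p = 1.13e-05) and had a log2 fold change with IL-22 of 0.13 ± 0.076 in fl/fl (adjusted p = 0.195). Gbe1, the glycogen branching enzyme, and Plod2, a collagen lysyl hydroxylase, were lower in untreated ΔIEC organoids by −1.43 ± 0.15 and −2.02 ± 0.31 on the log2 scale (adjusted p = 3.65e-06 and 0.000179). Bhlhe40 and Stc2, both hypoxia-induced, were lower by −0.74 ± 0.12 and −0.97 ± 0.17 (adjusted p = 0.000309 and 0.000564).

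Summed levels of cell type markers also moved with treatment and genotype, which in bulk RNA need not mean a change in cell make-up. Summed CPM of 9 enterocyte markers were 4120 to 5100 in untreated and 2530 to 3120 in IL-22–treated cultures, those of 6 stem cell markers 1720 to 2140 and 913 to 1020 in fl/fl and 2310 to 2570 and 986 to 1330 in ΔIEC cultures, and those of 7 proliferation genes 1180 to 1620 and 841 to 1040 in fl/fl and 1680 to 1840 and 1320 to 1660 in ΔIEC cultures. Summed CPM of 8 Paneth cell markers were 5630 to 9470 in fl/fl and 3160 to 4610 in ΔIEC cultures, those of 7 goblet cell markers 2040 to 3340 and 1050 to 2010, and those of 7 enteroendocrine markers 373 to 718 and 221 to 512. Between genotypes 5 and 7 of the Paneth, 4 and 4 of the goblet and 1 and 3 of the enteroendocrine markers were lower in ΔIEC untreated and with IL-22. Higher in ΔIEC were 1 and 2 of the enterocyte markers, 3 and 3 of the stem cell markers and 1 and 6 of the proliferation genes, with 1 stem cell marker lower under IL-22. Of all tested genes, 5.98% and 9.84% were lower and 3.78% and 9.91% higher. With IL-22 against untreated, 5 of the enterocyte markers fell and 1 rose in fl/fl, and 3 fell and 1 rose in ΔIEC organoids. Goblet markers also went both ways, with 1 down and 2 up in fl/fl and 2 of each in ΔIEC organoids. Stem cell markers fell for 3 and 5, proliferation genes for 7 and 3, and none of either rose. A Paneth marker rose in each genotype and an enteroendocrine marker in fl/fl. Of all tested genes, 10.2% fell and 10.6% rose in fl/fl, and 7.65% and 9.83% in ΔIEC organoids. Whether cell make-up had a part in the differences of the glycolytic and HIF genes was not tested.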

How the data were processed

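RNA of 16 organoid cultures was sequenced. The labels name a TruSeq RNA v2 library kit and the study's methods a stranded protocol on total RNA, so whether the libraries keep strand is not settled. The authors deposited read counts per gene: reads were trimmed with cutadapt, aligned to the mouse genome (mm10, GRCm38) with TopHat2 and counted with HTSeq, and the authors tested them with DESeq2. Tool versions, annotation release and the strand setting of the counting are not given in the sources used here. Reads on genes were 36.3% to 38.3% of the reads in the table, and rows for reads outside genes or on several genes were left out. Symbols were matched for 49326 of 49585 genes (99.5%).

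Counts were fitted with edgeR 4.0.16 (R 4.3.3): TMM scaling, filterByExpr (12559 genes left), 1 model over the 4 groups, and the quasi-likelihood test with Benjamini-Hochberg adjustment over all tested genes. A gene passed at an adjusted p under 0.01. Each SE is the size of the log2 fold change over √F. The common biological coefficient of variation was 0.115. Alternatives were DESeq2 1.42.0, relative log expression (RLE) scaling, no filter, an adjusted p under 0.05, organoid line as a block, summed lines, and leaving out each culture or line. Scaling by total counts was added after the data had been seen. The code was tested on simulated counts.

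Line numbers in the labels pair cultures within a genotype. Deviations from the group mean correlated at 0.26 to 0.44 (fl/fl) and 0.06 to 0.32 (ΔIEC) within a line and at −0.43 to −0.08 between lines. The deviations of a group cancel out, so positive values within lines bring negative ones between lines. The negative values therefore add nothing to the positive ones. The genotype comparisons cannot be blocked, since lines are nested in genotype. Depth of 2135000 to 5574860 counts limits precision for genes at a few CPM.

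All 36 members are accounted for, and those past the threshold in a pairwise comparison are given per culture. Other genes are named from 2 lists, at most the 6 with the smallest p per kind of comparison, and Atg16l1 and Socs3 serve as checks. The members and lists were chosen with earlier results of these data known.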

Additional observations from a re-analysis of the deposited data

Results flagged for a closer look

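Among the 140 groups of 4 cultures (35 genes in 4 groups), 11 held a culture far from the other 3 by Dixon's criterion, where chance gives about 1 in 20. The fourth treated fl/fl culture was the lowest of its group for 3 genes: Pgk1 at 2615 CPM beside 3094 to 3153, Eno1 at 3027 CPM beside 3284 to 3335, and Ldha at 5303 CPM beside 5957 to 6068. The third treated ΔIEC culture was the highest for both collagen hydroxylase subunits, P4ha1 at 95.2 CPM beside 65.9 to 69.3 and P4ha2 at 44.1 CPM beside 24.6 to 27.3. In untreated ΔIEC organoids, Gpi1 at 1626 CPM (others 1413 to 1444) and Pfkfb3 at 137.6 CPM (others 115.1 to 117.1) were high in the second culture, and Hk1 at 99.0 CPM (others 134.3 to 141) was low in the first. In untreated fl/fl organoids, Pfkl at 585.8 CPM (others 530.6 to 539.2) and Kdm3a at 275.3 CPM (others 207.2 to 213.3) were high in the fourth culture, and P4ha1 at 110.6 CPM (others 122.4 to 124) was low in the third.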

How the results depend on the processing

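None of the 72 calls of a member in a comparison changed sign under any alternative run, 53 passed without each single culture, 33 without each line and 18 under all alternatives. Of 103 values that did not pass, 46 changed sign somewhere. With the cultures of a line summed, members passing fell to 7 higher and 2 lower (IL-22, fl/fl), 5 higher and 2 lower (IL-22, ΔIEC), and 1 and 3 lower in untreated and IL-22–treated ΔIEC against fl/fl; this fit has fewer samples. Leaving out a culture or line gave 10 to 15 higher and 1 to 4 lower in fl/fl, 6 to 14 higher and 2 to 4 lower in ΔIEC, and 9 to 20 (untreated) and 8 to 25 (IL-22) lower between genotypes. With organoid line as a block, 16 rose and 4 fell in fl/fl, 15 rose and 5 fell in ΔIEC, and 0 passed for the interaction. Scaling by total counts, which moved the median of all genes by −0.118 for IL-22 in ΔIEC, gave 12 and 10 higher with IL-22 and 13 and 19 lower between genotypes. RLE, DESeq2, no filter and an adjusted p under 0.05 kept the counts within 1.5 times. Lines of 2 per genotype limit what the genotype comparison can show, and the cause of these shifts was not tested.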

Other observations

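As a share of all counts on genes, the 36 members took a median of 3.23% (range 3.19% to 3.39%) in untreated and 3.57% (3.33% to 3.68%) in IL-22–treated fl/fl cultures, and 2.66% (2.49% to 2.78%) and 2.82% (2.40% to 3.14%) in ΔIEC cultures. The 14 glycolytic genes made up most of this, with medians of 2.27%, 2.40%, 1.81% and 1.86% in the same order. The 13 HIF targets took 0.287%, 0.363%, 0.199% and 0.242%, and for these the range of the ΔIEC cultures with IL-22 (0.212% to 0.316%) reached into that of untreated fl/fl cultures (0.278% to 0.310%).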
